A study of Mus musculus with 6 samples.

Results

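Genes that red cell and platelet precursors use were examined in LSK cells, the lineage-negative, Sca-1-positive and c-Kit-positive fraction of bone marrow in which hematopoietic stem cells and the earliest progenitors are found. The genes were 35 symbols chosen for their known roles, and 34 of them were found among the 53445 loci of the table: 22 erythroid and 12 megakaryocyte genes. Where a symbol repeated, the longest locus was taken. The remaining symbol matched no locus. The mice were C57BL/6 females of about 12 weeks. In 3 of them, labelled Oga(Vav-Cre) and called OgaVav-Cre here, a Vav-iCre transgene, active in blood-forming cells, had recombined floxed alleles (Oga fl/fl) of Oga, which encodes the enzyme that removes the sugar O-GlcNAc from proteins. The other 3 were labelled wildtype, and whether they carried floxed alleles or Cre is not given in the sources used here. Each library was made from at least 20000 sorted cells, and poly(A) RNA was sequenced.

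Blood stem cells transcribe low levels of genes of several lineages before they commit to one, which is known as lineage priming. GATA1, with its partner FOG1 (Zfpm1), drives both erythroid and megakaryocyte genes, and KLF1 acts on the erythroid side. Red cell precursors then take up iron, make heme and globin and remodel their membrane, whereas megakaryocytes build the adhesion receptors, granules and microtubule coil of platelets.

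The libraries from OgaVav-Cre mice held 25190298 to 27064389 reads and those from wildtype mice 19318056 to 21684561 reads. Levels are given as CPM, read counts scaled to a common library size by TMM in edgeR, on which 3 reads, taken as the detection floor, equal 0.109 to 0.155 CPM. Mgea5, the former symbol of Oga, was at 4.60, 4.31 and 4.01 CPM in OgaVav-Cre and at 148.0, 153.8 and 115.5 CPM in wildtype libraries, so the labels match the targeted gene. Of the sort's own markers, Kit lay between 250.7 and 600.8 CPM and Ly6a, which encodes Sca-1, between 42.3 and 218 CPM. The Ly6a mean was 144 CPM in OgaVav-Cre and 70.75 CPM in wildtype libraries, and the genotypes overlapped. Its log2 fold change was 1.025 (edgeR, adjusted p = 0.484), or 0.59 to 1.67 with single libraries left out, and that of Kit was -0.26. OgaVav-Cre replicate 3 stood apart. Of 11 markers of LSK cells, 8 were lowest there, against 17.9% of all loci. Slamf1 and Cd48 were instead highest there, at 5.06 and 75.4 CPM. The 11 markers summed to 1224 CPM there, against 1552 to 2645 CPM in the other 5 libraries. Of 10 T cell and NK cell markers 7 were highest there, against 16.1% of all loci. Klrb1c and Ncr1 were highest in wildtype replicate 1 and Nkg7 in OgaVav-Cre replicate 2. The 10 markers summed to 222.8 CPM in OgaVav-Cre replicate 3, against 89.39 to 158.5 CPM in the others. Of 13 granulocyte and monocyte markers 6 were highest there, against the same 16.1% of all loci. The 13 markers summed to 2577 CPM there, against 679.9 to 1695 CPM in the others. This list was divided, because another 5 of its 13 genes were highest in wildtype replicate 1. Of 12 plasma cell and B cell markers 8 were highest in OgaVav-Cre replicate 1, against 14.9% of all loci. Another 4 were highest in OgaVav-Cre replicate 3. The 12 markers summed to 12450 CPM in OgaVav-Cre replicate 1, against 2241 to 8197 CPM in the others. None of these markers was at 0 reads in any library. Their part in the results was not tested, and results that rest on OgaVav-Cre replicate 3 are given with and without it. In RNA from a population, fewer cells of a type and less RNA per cell cannot be told apart.

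**Figure D1:**
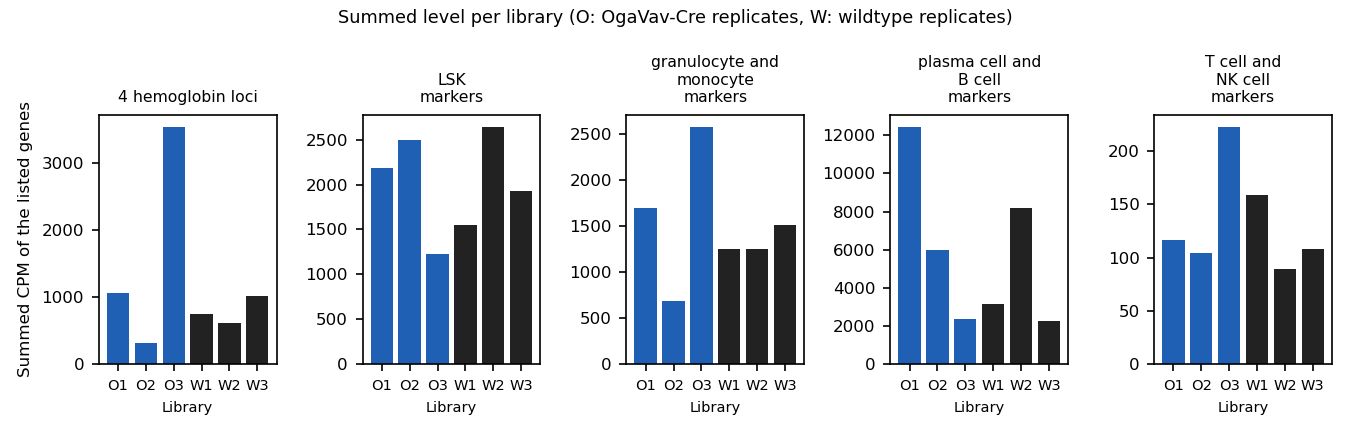
Summed level in CPM (vertical axes, each from 0) of the 4 hemoglobin genes and of 4 lists of cell type markers in each of the 6 libraries, with 1 bar per library and no error bar. OgaVav-Cre replicate 3 (O3) has the highest hemoglobin sum at 3534 CPM and the lowest LSK marker sum at 1224 CPM.

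Of the 34 genes, 32 had enough reads to be tested, all 22 erythroid and 10 of the 12 megakaryocyte genes. None passed the cutoffs for a call in either direction, which were 0.05 for the adjusted p of edgeR's quasi-likelihood test (Benjamini-Hochberg, over all loci tested) and 1 for the size of the log2 fold change. Of all 22032 loci tested 0.0318% passed them, 0.00454% higher and 0.0272% lower in OgaVav-Cre. Without OgaVav-Cre replicate 3 none of the 32 genes passed either, against 0.0399% of loci. The adjusted p-values of the 32 genes lay between 0.412 and 0.994. At an unadjusted p below 0.05 stood 1 gene, Gp5, higher in OgaVav-Cre, against 10.6% of all loci (4.38% higher and 6.27% lower). In 2 genes the genotypes did not overlap, Gp5 higher and Epb4.2 lower in OgaVav-Cre, against 17.5% of all loci (7.5% higher and 9.97% lower), so neither count exceeded its background. DESeq2's Wald test also called none of the 32. It called 0.318% of the 36514 loci with any read, a base that includes loci without an adjusted p and differs from edgeR's filtered loci.

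The erythroid genes had a median log2 fold change of -0.043, with 10 values above and 12 below 0, and the median of all loci tested was 0.0041. The megakaryocyte genes had a median of 0.49, with 9 values above and 1 below 0. Without OgaVav-Cre replicate 3 the medians were -0.077 and -0.37, and 11 of the 22 erythroid and 6 of the 10 megakaryocyte genes changed sign. The erythroid median was above 0 without OgaVav-Cre replicate 2 (0.064) or wildtype replicate 1 (0.27). With all libraries kept, the megakaryocyte median was 0.25 for the 8 genes with at least 10 reads in every library. It was 0.14 with limma-voom and 0.059 to 0.069 on the RPKM scale. Without wildtype replicate 1 it was 0.23 over 11 genes, with Clec1b then included. OgaVav-Cre replicate 3 held the highest level of 14 of the 34 genes, 7 in each lineage, whereas it was highest at 16.1% of all loci. Among erythroid genes it shared this with wildtype replicate 1, also highest in 7 of the 22, against 14.6% of all loci. OgaVav-Cre replicate 3 was lowest in 5 erythroid genes (17.9% of all loci) and OgaVav-Cre replicate 2 in 10 (18.9%).

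**Figure D2:**
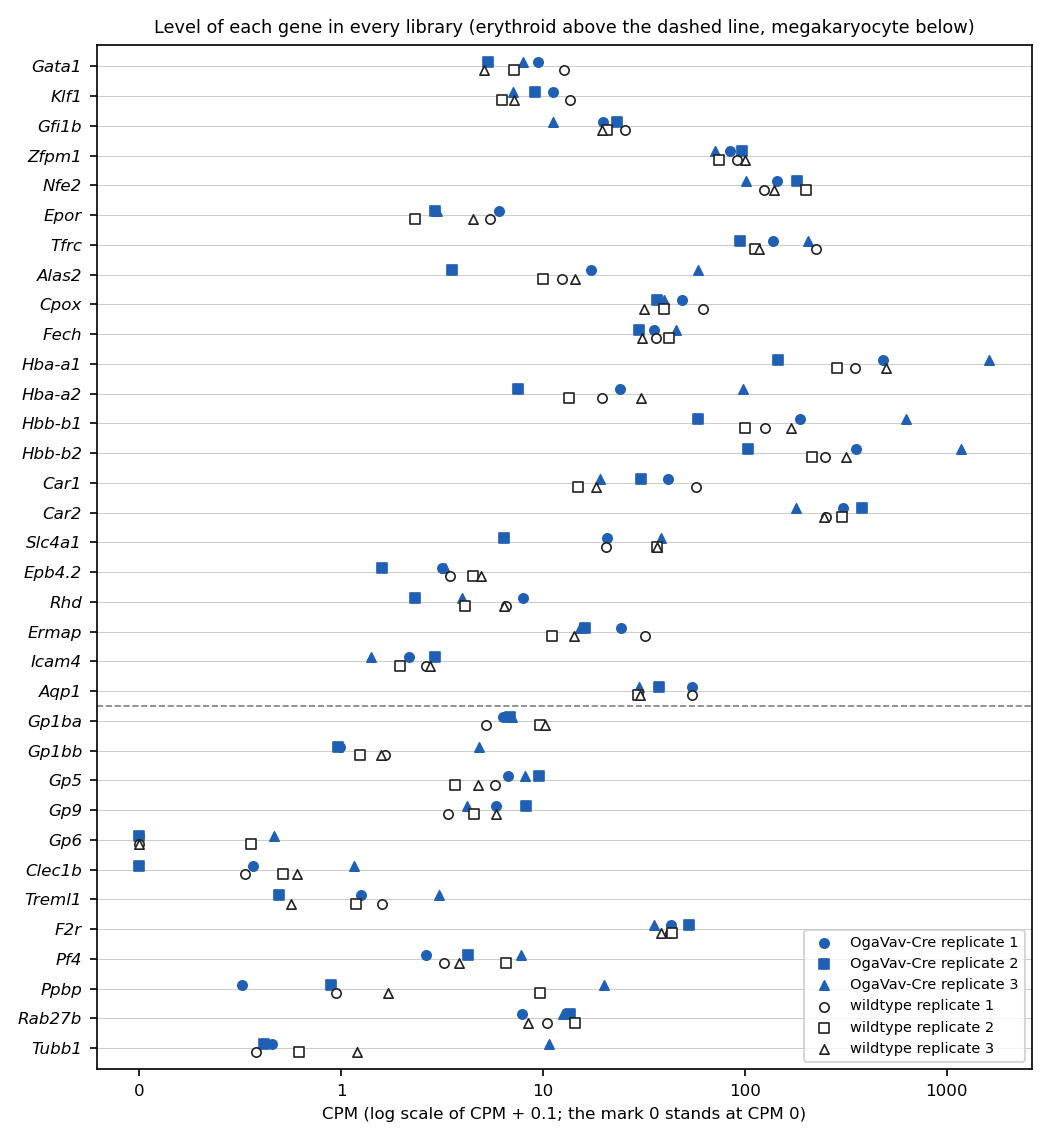
Level of each of the 34 genes in each library, with CPM on a logarithmic horizontal axis, filled symbols for the 3 OgaVav-Cre and open symbols for the 3 wildtype libraries. The hemoglobin genes, Alas2 and Tubb1 have a single filled triangle, OgaVav-Cre replicate 3, far to the right of the other libraries.

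Among the regulators, Gata1 was at 9.34, 5.22 and 7.87 CPM in OgaVav-Cre and at 12.5, 7.04 and 5.02 CPM in wildtype libraries. Wildtype replicates held both the highest and the lowest level, and the genotypes overlapped, the log2 fold change being -0.13 (standard error 0.374, adjusted p = 0.916). Klf1 was at 11.1, 9.01 and 7.03 CPM in OgaVav-Cre and at 13.5, 6.16 and 7.05 CPM in wildtype libraries. Its highest and lowest libraries were again both wildtype, and its log2 fold change was 0.021 (standard error 0.335). Zfpm1, the GATA1 cofactor, was measured most closely of these, at 84.1 ± 12.9 CPM in OgaVav-Cre against 88.3 ± 13.01 CPM in wildtype cells (SD, n = 3 each). The 95% interval of its log2 fold change, from -0.45 to 0.31, stayed within 1 on either side. Nfe2, a factor that megakaryocytes need to release platelets and that also binds globin control regions, was at 142 ± 39.5 CPM in OgaVav-Cre and 155 ± 40.7 CPM in wildtype cells (SD, n = 3 each). Gfi1b, a repressor needed in both lineages, was at 19.7, 23.1 and 11.1 CPM in OgaVav-Cre and at 25.4, 20.7 and 19.4 CPM in wildtype libraries. Gfi1b, Zfpm1 and Nfe2 were each lowest in OgaVav-Cre replicate 3, the library with the most globin reads. Without it the Gfi1b log2 fold change went from -0.28 to -0.027.

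Of the receptors, Epor, which receives erythropoietin, was at 5.93, 2.81 and 2.88 CPM in OgaVav-Cre and at 5.33, 2.23 and 4.39 CPM in wildtype libraries. The genotypes overlapped, and the 95% interval of its log2 fold change ran from -1.05 to 0.95. Tfrc, the transferrin receptor that brings in iron, was at 137.5, 94.8 and 206.4 CPM in OgaVav-Cre and at 224.1, 112.1 and 117.8 CPM in wildtype libraries. Its high libraries were OgaVav-Cre replicate 3 and wildtype replicate 1, and its log2 fold change was -0.049 (standard error 0.349).

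The hemoglobin genes spread more widely among the OgaVav-Cre mice than the genotype means lay apart. Hba-a1, an adult alpha globin gene on chromosome 11 (mm9, plus strand, 32183511 to 32184486), was at 486, 146 and 1628 CPM in OgaVav-Cre and at 352, 288 and 500.3 CPM in wildtype libraries. The OgaVav-Cre group held both the highest and the lowest library, and all 3 wildtype libraries lay between them. Hbb-b2, an adult beta globin gene on chromosome 7, was at 356, 104 and 1179 CPM in OgaVav-Cre and at 248, 214 and 318 CPM in wildtype libraries. Hbb-b1 was at 187, 58.5 and 629 CPM and at 126, 100.1 and 168 CPM in the same order, and Hba-a2 at 23.9, 7.39 and 97.4 CPM and at 19.6, 13.4 and 30.4 CPM. All 4 genes were highest in OgaVav-Cre replicate 3, by 3.20 to 3.36 times over the next library, and lowest in OgaVav-Cre replicate 2. Their log2 fold changes of 0.99 to 1.15 had standard errors of 0.715 to 0.796 and adjusted p-values of 0.579 to 0.652. With limma-voom the values were 0.37 to 0.57, and on the RPKM scale 0.30 to 0.50. Without OgaVav-Cre replicate 3 all 4 turned negative, between -0.44 and -0.096. The 4 loci together took 0.0945, 0.0306 and 0.359% of the reads in the OgaVav-Cre mice, in replicate order, and 0.0774, 0.0615 and 0.111% in the wildtype mice. The Wilson 95% interval of the highest share was 0.356 to 0.361% and covers counting error only.

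The ratios between the globin genes were steadier than their levels. Alpha reads stood to beta reads at 0.937 to 1.09 in the 6 libraries, Hbb-b2 to Hbb-b1 at 1.77 to 2.14 and Hba-a1 to Hba-a2 at 16.4 to 21.4. The division within each pair is uncertain, because 86.9% of the 50-base windows of the Hba-a2 transcript also occur in Hba-a1 and 58.3% of those of Hbb-b2 in Hbb-b1. The table also lists the Hbb-b2 span under further names with nearly the same reads. The embryonic globin genes Hbb-bh1, Hbb-y and Hba-x had 0 reads in every library.

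Alas2, the erythroid enzyme that starts heme synthesis, followed the same library order at its ends. It was at 17.2, 3.44 and 58.3 CPM in OgaVav-Cre and at 12.3, 9.94 and 14.3 CPM in wildtype libraries, highest in OgaVav-Cre replicate 3 by 3.39 times and lowest in OgaVav-Cre replicate 2. In edgeR its log2 fold change was 1.11 with a standard error of 0.800 and an adjusted p of 0.624, and it was -0.24 without OgaVav-Cre replicate 3. With all libraries it was 0.34 in limma-voom and 0.27 to 0.35 on the RPKM scale. Alas2 lies wholly within a locus on the opposite strand that held 0.403 to 2.61 times its reads, so its reads are uncertain. For the later enzymes of the pathway the genotypes overlapped. Cpox, coproporphyrinogen oxidase, was at 41.8 ± 6.42 CPM in OgaVav-Cre and 44.6 ± 15.8 CPM in wildtype cells (SD, n = 3 each), and Fech, which inserts the iron, was at 36.9 ± 7.90 and 36.4 ± 5.59 CPM. The 95% interval of the Fech log2 fold change was -0.43 to 0.47.

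The promoters of Alas2 and Hba-a1, whose levels moved together across libraries, are shown, with those of Gp5 and Tubb1 for the megakaryocyte side. The sequences are RefSeq windows of 250 bases before the gene start (GRCm38.p6), read 5′ to 3′ along the gene. Capitals mark GATAA, bound by GATA factors, CCACCC, bound by KLF1 and its relatives, and GGAAG, the core of ETS factor sites, on either strand, and neighbouring or overlapping matches run together. The windows are chrX:150547167-150547416 (plus strand) for Alas2, chr11:32283422-32283671 (plus strand) for Hba-a1, chr16:30310782-30311031 (minus strand) for Gp5 and chr2:174450345-174450594 (plus strand) for Tubb1.
Alas2: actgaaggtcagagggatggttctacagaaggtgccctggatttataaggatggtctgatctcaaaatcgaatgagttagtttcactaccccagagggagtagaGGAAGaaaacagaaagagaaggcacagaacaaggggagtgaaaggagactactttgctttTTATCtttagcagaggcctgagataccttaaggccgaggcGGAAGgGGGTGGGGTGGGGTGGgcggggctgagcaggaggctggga
Hba-a1: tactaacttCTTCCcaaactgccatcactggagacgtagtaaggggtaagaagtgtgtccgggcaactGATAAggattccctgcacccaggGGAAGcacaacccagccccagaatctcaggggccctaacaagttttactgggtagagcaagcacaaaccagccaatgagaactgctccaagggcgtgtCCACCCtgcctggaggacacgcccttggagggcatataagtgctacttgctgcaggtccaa
Gp5: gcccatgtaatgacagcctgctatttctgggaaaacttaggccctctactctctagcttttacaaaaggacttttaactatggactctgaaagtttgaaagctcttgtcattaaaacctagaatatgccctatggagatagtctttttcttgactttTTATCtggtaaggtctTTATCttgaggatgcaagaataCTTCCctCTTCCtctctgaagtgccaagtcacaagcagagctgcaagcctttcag
Tubb1: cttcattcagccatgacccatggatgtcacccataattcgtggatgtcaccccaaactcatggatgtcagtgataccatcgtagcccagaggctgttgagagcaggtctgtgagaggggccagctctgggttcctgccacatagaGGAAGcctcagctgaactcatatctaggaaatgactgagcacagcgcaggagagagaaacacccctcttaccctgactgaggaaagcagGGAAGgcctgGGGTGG

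In the Alas2 window the CCACCC motif occurred 3 times as a joined run on the opposite strand, and GATAA once, 82 bases before the start. Hba-a1 held each of these 2 motifs once. Hba-a2, Epor, Ermap and Gp1ba also held both, and of these only Hba-a2 was highest in OgaVav-Cre replicate 3. Gp5 held GATAA 2 times, the nearer 73 bases before the start, and no CCACCC, whereas Tubb1 held CCACCC next to the start and no GATAA. Windows were found for 26 of the 34 genes, and not for Hbb-b1 or Hbb-b2. GATAA lay in 11 of 15 erythroid windows (73.3%) and 5 of 11 megakaryocyte windows (45.5%), and in 23.0% of the 27025 windows of all genes. CCACCC lay in 53.3% and 36.4% of them, against 27.7%, and GGAAG in 66.7% and 72.7%, against 63.6%. These are matches of letters, and factor binding was not measured.

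Slc4a1, the band 3 anion exchanger of the red cell membrane, was at 20.5, 6.28 and 38.5 CPM in OgaVav-Cre and at 20.5, 36.6 and 36.8 CPM in wildtype libraries. It was highest in OgaVav-Cre replicate 3, by 1.05 times, and lowest in OgaVav-Cre replicate 2, the same ends as in the globins. The log2 fold change was -0.52 with all libraries, -1.22 without OgaVav-Cre replicate 3 and -0.082 without OgaVav-Cre replicate 2. Epb4.2, protein 4.2, which ties band 3 to the membrane skeleton, was at 3.05, 1.502 and 3.17 CPM in OgaVav-Cre and at 3.37, 4.40 and 4.81 CPM in wildtype libraries. All 3 OgaVav-Cre libraries were below all 3 wildtype libraries, but the adjusted p was 0.515 (edgeR) for a log2 fold change of -0.70 (standard error 0.352), which was -0.43 without OgaVav-Cre replicate 2 and -0.27 on the RPKM scale with a pseudocount of 1. The gene rested on 38 to 114 reads per library, and a locus on the opposite strand overlaps it. Rhd, a Rh blood group protein, Icam4, an adhesion molecule of erythroblasts, Ermap, a red cell surface protein, and Aqp1, a water channel, had log2 fold changes of -0.27, -0.19, -0.040 and 0.10, and in each the genotypes overlapped. Icam4 lies wholly within a locus on the opposite strand that held 4.32 to 7.89 times its reads, so its reads are uncertain.

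The carbonic anhydrases, which interconvert carbon dioxide and bicarbonate, differed in level and in steadiness. Per length, Car2 was among the most abundant of all these genes, at 133 ± 12.0 RPKM (reads scaled to library size and locus length) in wildtype and 137 ± 48.1 RPKM in OgaVav-Cre cells (SD, n = 3 each), and Hba-a1, Hbb-b2 and Hbb-b1 had higher means, at 409 ± 128, 382 ± 87.7 and 137 ± 39.3 RPKM in wildtype cells, the last within its spread of Car2. Car1 was at 21.6 RPKM on average in wildtype cells. Car2 was lowest in OgaVav-Cre replicate 3, at 178 CPM against 247 to 380 CPM in the others, the reverse of the globins. Car1 was at 41.6, 30.5 and 19.2 CPM in OgaVav-Cre and at 57.3, 14.8 and 18.2 CPM in wildtype libraries. The SD within wildtype, 23.6 CPM, exceeded the difference between the genotype means, and its log2 fold change was 0.014 (standard error 0.520).

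**Figure D3:**
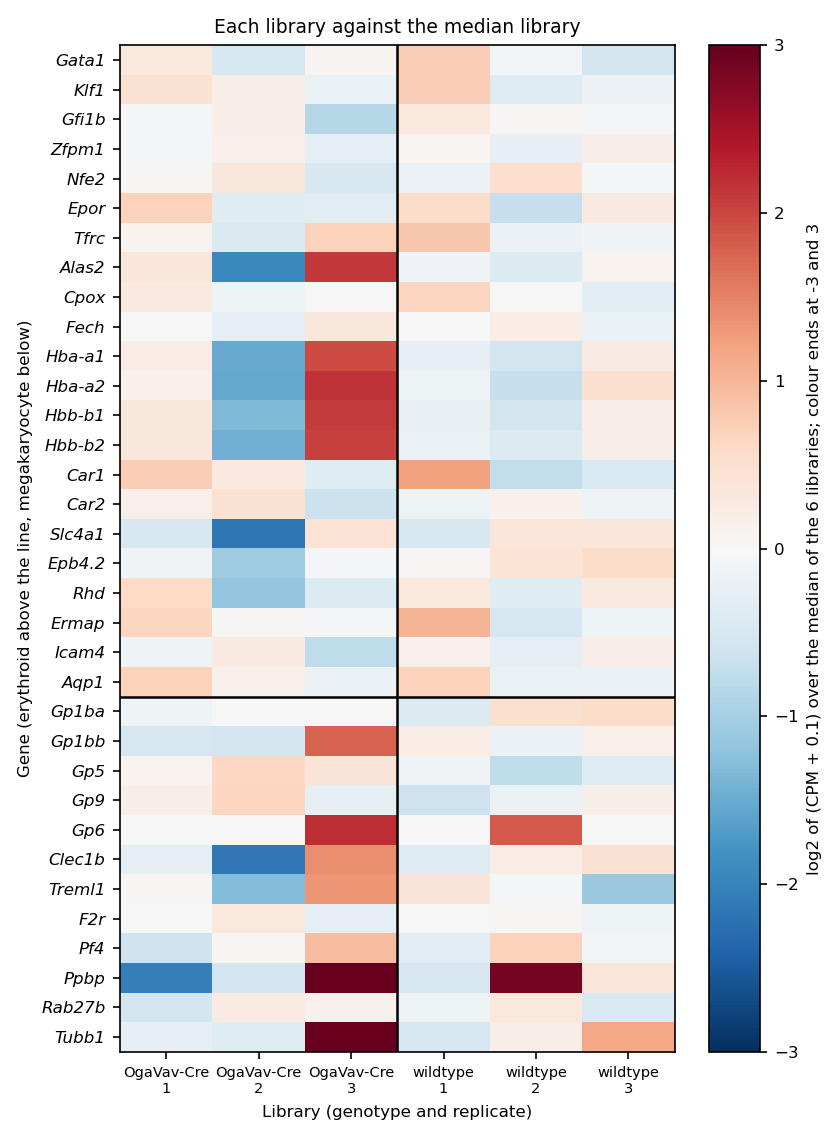
Each gene (rows) in each library (columns) as the log2 ratio of CPM + 0.1 to the median of the 6 libraries, red above and blue below. The globin genes and Alas2 are red in OgaVav-Cre replicate 3 and blue in OgaVav-Cre replicate 2, while Car2, Gfi1b and Nfe2 are blue in OgaVav-Cre replicate 3.

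On the megakaryocyte side, Gp5 was the gene with the smallest p-value of all 32. It encodes glycoprotein V, a subunit of the platelet receptor for von Willebrand factor, and lies on chromosome 16 (mm9, minus strand, 30283334 to 30310865). It had 149, 240 and 222 reads in the OgaVav-Cre mice against 122, 69 and 110 reads in wildtype libraries, or 6.60, 9.48 and 8.09 CPM and 5.71, 3.57 and 4.64 CPM. All 3 OgaVav-Cre libraries were above all 3 wildtype libraries, and OgaVav-Cre replicate 3 was not the highest. The log2 fold change of 0.79 had a standard error of 0.259 and a 95% interval of 0.19 to 1.40. Its unadjusted p of 0.0163 did not pass the adjustment over all loci (edgeR, adjusted p = 0.412). With single libraries left out the value lay between 0.65 and 0.97, on the RPKM scale it was 0.50 to 0.70, and among all 15 alternatives the lowest adjusted p was 0.243, from DESeq2.

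In the other subunits of this receptor the genotypes overlapped, which was not tested as a difference from Gp5. Gp9 was at 5.76, 8.10 and 4.12 CPM in OgaVav-Cre and at 3.28, 4.45 and 5.78 CPM in wildtype libraries, the log2 fold change being 0.41 (standard error 0.332, adjusted p = 0.665) and 0.13 without OgaVav-Cre replicate 2. Gp1ba, the subunit that binds von Willebrand factor, was at 6.24, 6.76 and 6.96 CPM in OgaVav-Cre and at 5.10, 9.58 and 10.1 CPM in wildtype libraries. The wildtype libraries lay on both sides of the OgaVav-Cre libraries, and its log2 fold change was -0.31 (standard error 0.284), with -0.57 without wildtype replicate 1 and -0.14 without wildtype replicate 3. Gp1bb was at 0.885, 0.869 and 4.73 CPM in OgaVav-Cre and at 1.54, 1.14 and 1.48 CPM in wildtype libraries. Only OgaVav-Cre replicate 3 was above the wildtype range, and the log2 fold change was 0.64 with it, or 0.21 in limma-voom, and -0.66 without it. Gp1bb also shares its span with the neighbouring septin gene, so its reads are uncertain.

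Among the other platelet receptors, F2r, a thrombin receptor that many cells carry, was at 42.9, 53.0 and 35.2 CPM in OgaVav-Cre and at 42.5, 43.5 and 38.5 CPM in wildtype libraries. The 95% interval of its log2 fold change was -0.31 to 0.46. Treml1, a receptor stored in platelet granules, had 26, 10 and 81 reads in the OgaVav-Cre mice against 32, 21 and 11 reads in wildtype libraries, and its log2 fold change was 0.57 with OgaVav-Cre replicate 3, or 0.33 in limma-voom, and -0.39 without it. Gp6, the collagen receptor, and Clec1b, the podoplanin receptor, had too few reads for the filter of the test. Gp6 had 0, 0 and 10 reads in the OgaVav-Cre mice against 0, 5 and 0 reads in wildtype libraries, and Clec1b had 6, 0 and 29 reads and 5, 8 and 12 reads. Treml1, Gp6 and Clec1b were all highest in OgaVav-Cre replicate 3.

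Of the granule and cytoskeleton genes, Tubb1, the beta tubulin of the platelet microtubule coil, was at 0.354, 0.316 and 10.7 CPM in OgaVav-Cre and at 0.281, 0.518 and 1.10 CPM in wildtype libraries. In reads these were 8, 8 and 293 against 6, 10 and 26, so OgaVav-Cre replicate 3 alone was high, 9.72 times over the next library. In edgeR its log2 fold change was 2.56, the largest of the 32 genes, with a standard error of 1.33 and an adjusted p of 0.526, and it was -0.91 without that library. With all libraries it was 1.05 in limma-voom and 0.69 to 0.89 on the RPKM scale. Ppbp, a chemokine of platelet alpha granules, had 5, 20 and 548 reads in the OgaVav-Cre mice against 18, 184 and 38 reads in wildtype libraries. OgaVav-Cre replicate 3 and wildtype replicate 2 were both high, and leaving out single libraries moved the log2 fold change from -2.94 to 2.52. Pf4, platelet factor 4, lies beside Ppbp on chromosome 5 and had 57, 105 and 210 reads in the OgaVav-Cre mice against 67, 124 and 89 reads in wildtype libraries. Its 2 highest libraries were the same as those of Ppbp, over a narrower range, and the log2 fold change was 0.11 (standard error 0.453). Rab27b, a GTPase of dense granule release, was at 11.3 ± 3.09 CPM in OgaVav-Cre and 11.0 ± 3.06 CPM in wildtype cells (SD, n = 3 each).

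**Figure D4:**
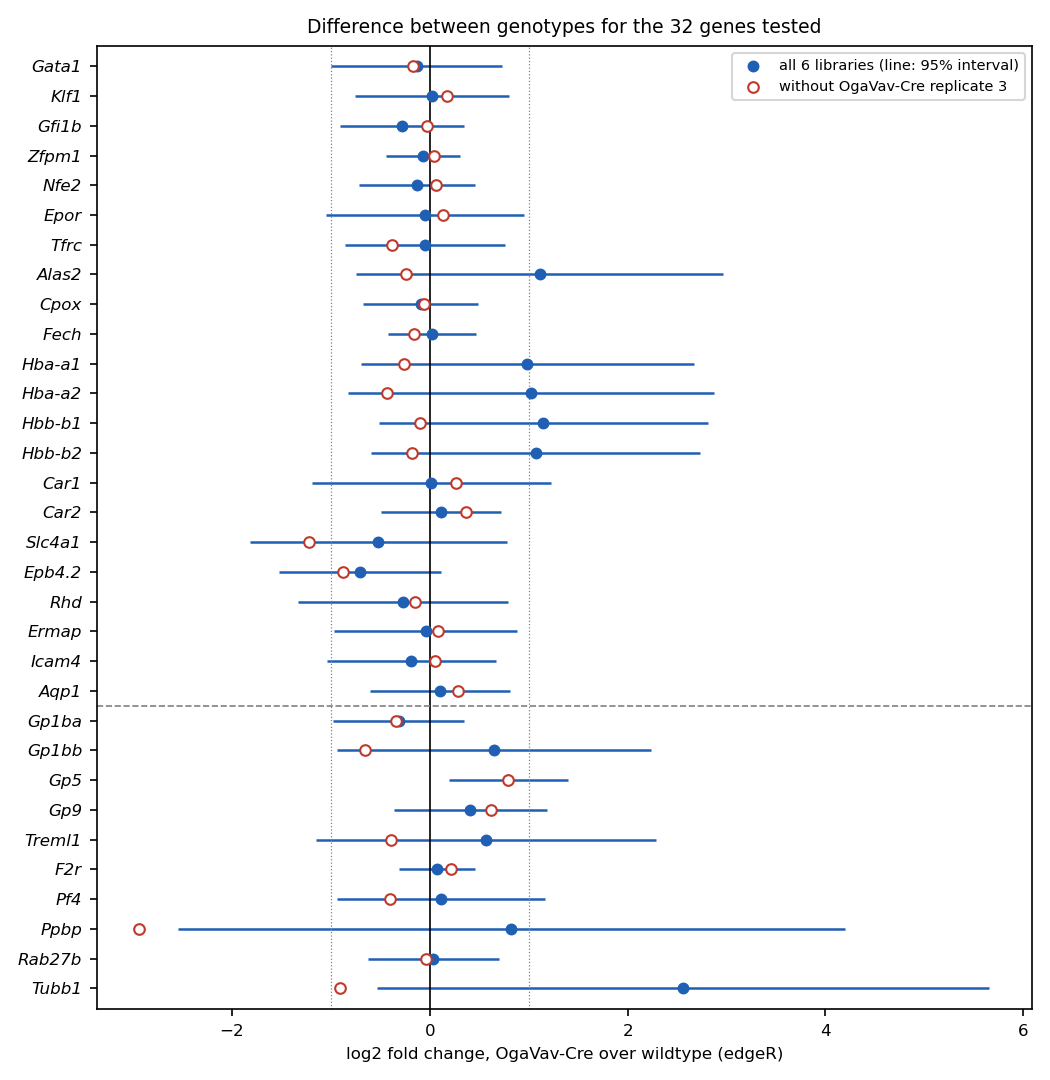
log2 fold change of OgaVav-Cre over wildtype for the 32 genes tested (filled points, with lines for the 95% interval) and the same value without OgaVav-Cre replicate 3 (open points). Gp5 is the gene whose interval lies wholly above 0, and the globin genes, Alas2, Gp1bb, Treml1, Pf4, Ppbp and Tubb1 have open points below 0.

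Further genes of the same pathways were taken from lists drawn up by function, and none of them was called. Of 17 other heme and iron genes tested, 6 had values above and 11 below 0, with a median log2 fold change of -0.15 that was 0.0084 without OgaVav-Cre replicate 3. An unadjusted p below 0.05 was reached by 3 of them, against 10.6% of all loci, and in 3 the genotypes did not overlap, against 17.5%. These shares are the background for the lists that follow too. The 3 with the smallest p were Slc25a37 (mitoferrin, the mitochondrial iron importer) at -0.57, Ppox (protoporphyrinogen oxidase) at -0.51 and Fth1 (ferritin heavy chain) at 0.34, with adjusted p-values of 0.440 to 0.468 in edgeR. Of 16 other red cell membrane and globin genes tested, the median was -0.020, and -0.081 without OgaVav-Cre replicate 3. An unadjusted p below 0.05 and genotypes without overlap were seen in 1, Blvrb (biliverdin reductase B), with a log2 fold change of 0.45.

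Of 17 other transcription factors of both lineages, 14 had values below 0, with a median of -0.13, and -0.14 without OgaVav-Cre replicate 3. The genotypes did not overlap in 3 of them, and 1 had an unadjusted p below 0.05. Myb, which keeps progenitors immature, was at 427, 405 and 353 CPM in OgaVav-Cre and at 549, 508 and 496 CPM in wildtype libraries. All OgaVav-Cre libraries were below all wildtype libraries, and the adjusted p was 0.416 (edgeR) for a log2 fold change of -0.39 (standard error 0.132). Of 23 other platelet genes tested, 14 had values above and 9 below 0, with a median of 0.077, which was -0.14 without OgaVav-Cre replicate 3, where 7 changed sign. The genotypes did not overlap in 2 of them, the same 2 that had an unadjusted p below 0.05. Selp, the adhesion receptor P-selectin, was at 10.8, 18.97 and 7.07 CPM in OgaVav-Cre and at 24.8, 24.3 and 20.5 CPM in wildtype libraries, and Plek, the kinase substrate pleckstrin, was at 161, 186 and 209 CPM and at 135, 146 and 140.0 CPM. The genotypes did not overlap in either, Selp being lower and Plek higher in OgaVav-Cre, and their adjusted p-values were 0.437 and 0.416.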

How the data were processed

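Poly(A) RNA of LSK cells from 3 OgaVav-Cre and 3 wildtype mice was analyzed, with 1 library per mouse by the labels. The authors sequenced 50-base single-end reads, processed with CASAVA 1.8.2 per the submitters' notes, aligned to mm9, and used Genomatix to count them at each locus. The aligner version, the annotation version and the use of strand are not given in the sources used here. The deposited counts are raw reads per locus, and the deposited RPKM were made by the authors from these counts and the locus length. The authors' fold changes, p-values and normalized expression column were not used.

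Counts were tested over all loci in R 4.3.3 with edgeR 4.0.16 (TMM, filterByExpr, glmQLFit, glmQLFTest), and calls needed both cutoffs, 0.05 for the adjusted p and 1 for the size of the log2 fold change. The standard error was taken from the fold change and the F statistic. Alternatives used DESeq2 1.42.0, limma 3.58.1 (voom, and limma-trend on log2 of RPKM plus 0.1 or 1), other scalings and filters, the replicate number as a block, and each library left out. The scripts were tested on simulated data. There edgeR called 49% of loci with a log2 change of 1.5 and 90% of those with a change of 3. A real change of 1.5 was thus often not called. Of its calls 12.6% were false, and of those of DESeq2 25.8%, both above the level set by the adjusted p cutoff of 0.05. Python 3.11.15 was used for tables and figures. Promoters were matched by gene ID, and coordinates of genes are mm9.

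The genes and lists were chosen with earlier results of these data known. All members are named, with Mgea5 and up to 3 genes of each further list with the smallest p. Kit, Ly6a, Slamf1, Cd48, Klrb1c, Ncr1, Nkg7 and the embryonic globin genes were chosen after their values were seen. Of 9 members, the span overlaps that of another locus, and how such reads were counted is not given. The values of 1 gene of the further lists are not reported here.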

Additional observations from a re-analysis of the deposited data

How the results depend on the processing

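None of the 32 genes tested was called under any of the 15 alternatives, and over these the lowest adjusted p was 0.243. The log2 fold changes of Epb4.2, Gfi1b, Gp1ba, Gp5, Gp9 and Slc4a1 kept their sign in all of them, and the other 26 changed sign at least once. With libraries left out in turn, the erythroid median lay between -0.18 and 0.27 (0.27 without wildtype replicate 1) and the megakaryocyte median between -0.37 (without OgaVav-Cre replicate 3) and 0.67. The megakaryocyte median covered 10 genes with all libraries and without OgaVav-Cre replicate 3. When another library was left out it covered 11, with Clec1b added. With RPKM the megakaryocyte median was 0.059 (pseudocount 0.1) and 0.069 (pseudocount 1), and it was 0.14 with limma-voom and 0.25 with at least 10 reads in every library. Genes whose genotypes do not overlap numbered 2 to 5, with 5 when either OgaVav-Cre replicate 2 or 3 or wildtype replicate 1 was left out, where 25.5, 33.8 and 35.3% of all loci did not overlap. This count is not given for voom, the robust dispersion, the block, DESeq2 or a pseudocount of 1. Mgea5 stayed between -5.13 and -4.93 with libraries left out. The cause of these shifts was not tested.

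Signs also changed with RPKM at pseudocounts of 0.1 and 1 in Fech (-0.058 and -0.045), Car2 (-0.019 and -0.018), F2r (-0.011 and -0.0091), Pf4 (-0.039 and -0.021), Ppbp (-0.50 and -0.023) and Rab27b (-0.034 and -0.012), and in Ermap at 0.1 (0.011). With limma-voom Ermap was at 0.062 and Ppbp at -0.37. Libraries with the same number did not deviate together in every pair (correlations -0.0814, 0.26 and 0.316 over 22032 loci), and 4 of 6 libraries correlated best with their own number. With the replicate number as a block 2 loci were called higher and 4 lower in OgaVav-Cre, in place of 1 and 6, Ermap was at 0.078, Ppbp at -0.65, Alas2 at 0.40, Tubb1 at 1.34, the 4 globin genes at 0.40 to 0.57 and the megakaryocyte median at 0.14, no gene of the 32 was called and the lowest adjusted p was 0.377. With 1 library left out the log2 fold changes ranged from -0.39 to 0.31 (Gata1), -0.17 to 0.45 (Klf1), -0.18 to 0.038 (Zfpm1), -0.34 to 0.11 (Nfe2), -0.48 to 0.22 (Epor), -0.38 to 0.35 (Tfrc), -0.24 to 1.64 (Alas2), -0.29 to 0.23 (Cpox), -0.16 to 0.15 (Fech), -0.27 to 1.48 (Hba-a1), -0.44 to 1.53 (Hba-a2), -0.10 to 1.64 (Hbb-b1), -0.18 to 1.57 (Hbb-b2), -0.30 to 0.88 (Car1), -0.14 to 0.37 (Car2), -0.87 to 0.066 (Rhd), -0.31 to 0.56 (Ermap), -0.47 to 0.057 (Icam4), -0.16 to 0.46 (Aqp1), -0.66 to 1.03 (Gp1bb), -0.39 to 1.03 (Treml1), -0.085 to 0.21 (F2r), -0.40 to 0.48 (Pf4), -2.94 to 2.52 (Ppbp), -0.13 to 0.28 (Rab27b) and -0.91 to 3.24 (Tubb1). Of the genes that kept their sign, Slc4a1 ranged from -1.22 to -0.082, Epb4.2 from -0.88 to -0.43, Gfi1b from -0.50 to -0.027, Gp1ba from -0.57 to -0.14, Gp9 from 0.13 to 0.63 and Gp5 from 0.65 to 0.97. Gp6 was tested in the fit without a filter and in DESeq2, which gave it no adjusted p and so could not call it. Clec1b was tested in both, and also when any library other than OgaVav-Cre replicate 3 was left out, at log2 fold changes of -0.050 to 0.79. Neither gene was called, and their lowest unadjusted p over the alternatives that included them was 0.778 and 0.348.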
